A study of Mus musculus with 12 samples.

Results

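The fibroblast growth factor (FGF) ligand and receptor genes described here are 10 named genes, the ligands Fgf15, Fgf1, Fgf2, Fgf7, Fgf9, Fgf10 and Fgf18 and the receptors Fgfr1, Fgfr2 and Fgfr3. They were taken by symbol from the 55536 genes of the deposited count table, and all 10 were present, each with 1 Ensembl identifier. The list was drawn up with earlier results of these data in view, and Fgf15 was chosen by its measured level, which was very high in 1 translocation tumour. That level is therefore a description and carries no test. The series set mouse tumours with a translocation between Ewsr1 and Atf1 against tumours that express EWSR1-ATF1, the fusion of clear cell sarcoma, from the Rosa26 locus. There were 5 translocation tumours (genotype HprtCre; Ewsr1-loxP; Atf1-loxP, with Cre recombinase at the Hprt locus, which is broadly active), 6 Rosa26 tumours (genotype Rosa26-LSL-EWSR1-ATF1, a transgene that is silent until Cre removes its stop cassette, with no Cre driver named in the labels) and 1 skeletal muscle labelled wild-type. The labels give no age, sex or number of animals. The titles of translocation tumours 2 and 5 share a leading number, as do those of translocation tumour 1 and the muscle. Those of Rosa26 tumours 5 and 6 differ in the last digit. Samples may thus share an animal, and p-values measure the spread between samples only. Translocation tumours 2 and 5 read as different sexes, but that is a read of expression, and whether they share an animal was not established.

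FGFs signal through receptor tyrosine kinases, and most ligands need heparan sulfate chains on the cell surface to bind them. Mesenchymal cells make Fgf7 and Fgf10, which act on the epithelial splice form of Fgfr2, while Fgf15 is an endocrine ligand made by the ileum that lowers bile acid synthesis in the liver through Fgfr4 and its coreceptor beta-Klotho (Klb). Fgf15 is also made in the embryonic nervous system, where sonic hedgehog is upstream of it. In bulk tissue, fewer cells of a type and less RNA per cell cannot be told apart.

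Depth was 2.96 to 21.2 M counts per translocation tumour, 6.82 to 21.5 M per Rosa26 tumour and 25.0 M for muscle. Translocation tumour 2 and Rosa26 tumour 4 gave 37.8% and 30% of their counts to 3 genes of ribosomal sequence, against 1.34% to 7.38% in the other tumours. Levels are given in CPM, the counts scaled to a common total with TMM factors over all 12 libraries, and levels of different genes are compared only per kilobase (kb) of annotated exon. Of 10 skeletal muscle markers, all were counted in the muscle library, with a summed level of 311522 CPM. The same sum was 42172 CPM in Rosa26 tumour 1, 3972 CPM in translocation tumour 2, 2167 CPM in Rosa26 tumour 3 and at most 104 CPM in the other tumours. Of 7 melanocytic markers, Mlana had no count in any tumour, Tyr, Tyrp1 and Sox10 stayed at or below 1.75 CPM and Pmel at or below 3.26 CPM. Mitf and Dct were counted in both groups, with at most 30.8 and 25.6 CPM in the Rosa26 tumours. Mitf was highest among the translocation tumours in tumour 5, at 162.9 CPM. Translocation tumour 5 stood apart, with 299.9 CPM of the pigment enzyme gene Dct and a summed fibroblast marker level of 254 CPM, against 3607 to 102936 CPM in the other tumours.

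Read from Xist and Y-linked genes, translocation tumour 5 was the 1 male of its group, while 4 of the 6 Rosa26 tumours were male. A library was read as male when its Y-linked counts exceeded those of Xist and as female otherwise.

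**Figure D1:**
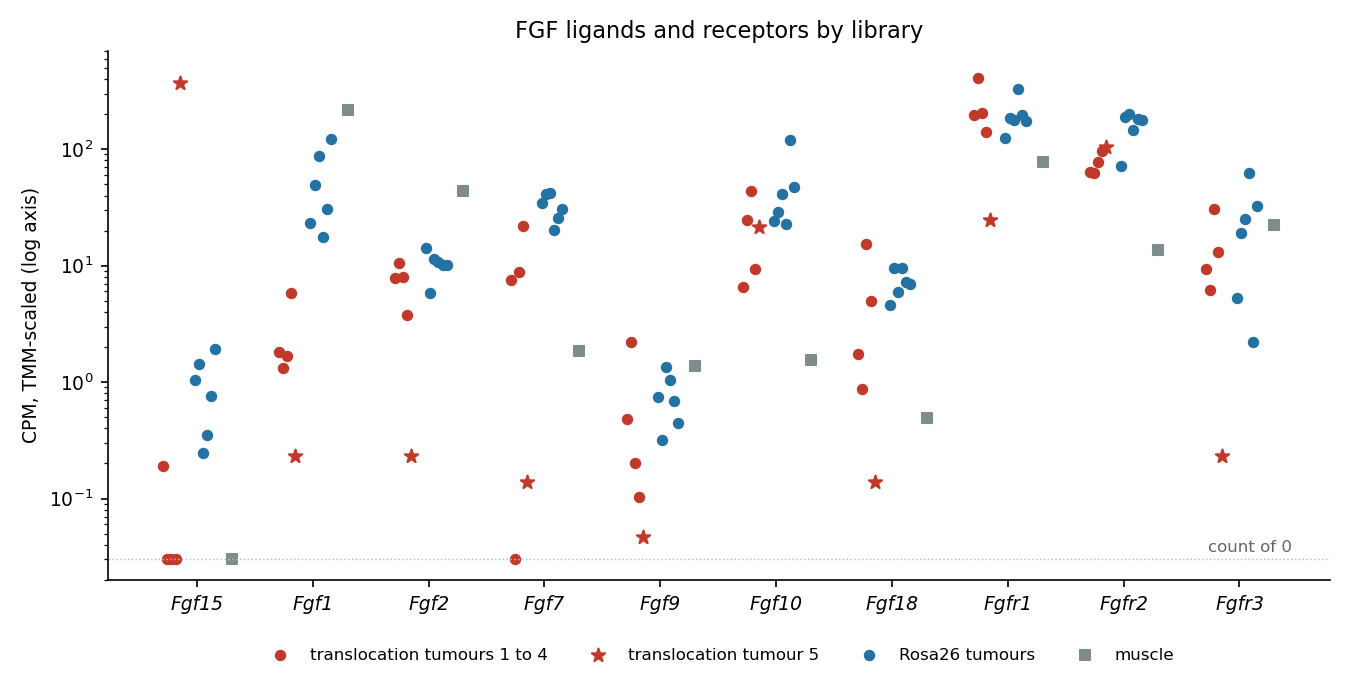
Level of each FGF gene in each library as TMM-scaled CPM on a log axis, with counts of 0 drawn on the dotted line; circles are translocation tumours 1 to 4 and Rosa26 tumours, the star is translocation tumour 5 and squares are muscle. Fgf15 stands at 368 CPM in translocation tumour 5, no other library exceeds 1.92 CPM, and Fgf1 is the member whose tumour groups do not overlap.

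Fgf15 (ENSMUSG00000031073, mm10 chromosome 7, 144896531 to 144900953, plus strand) was nearly silent in 10 of the 11 tumours. It was 368 CPM in translocation tumour 5, from 7921 counts. Translocation tumour 1 had 0.192 CPM, and translocation tumours 2, 3 and 4 had no count, where 3 counts would be 1.31, 0.122 and 0.155 CPM. The Rosa26 tumours had 1.04, 1.42, 0.245, 0.350, 0.766 and 1.92 CPM, and muscle had no count. The 4 other translocation tumours thus gave 2 counts in all and the 6 Rosa26 tumours gave 103. The high library was 192 times the next highest, Rosa26 tumour 6, and ranked Fgf15 as gene 362 by CPM of the 25218 genes with a count in it. Such a pattern was not rare in that library: 199 of 14907 genes that reached 5 CPM in a tumour were at least 10 times higher in translocation tumour 5 than in any other tumour, or 1.33%. Over all 11 tumours 401 genes (2.69%) were at least 10 times higher in 1 tumour than in any other. Rosa26 tumour 1 had 127 such genes and each other tumour at most 25.

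The neighbouring gene Fgf3, another paracrine FGF ligand gene of the embryo, was high in the same tumour. Fgf3 starts at -58.45 kb from the start of Fgf15, on the same strand (ENSMUSG00000031074, chromosome 7, 144838083 to 144844436). It was 74.7 CPM in translocation tumour 5, 0.104 CPM in translocation tumour 4 and without a count in translocation tumours 1 to 3. In the Rosa26 tumours Fgf3 was 0.115, 1.18, 0.490, 0.350, 0.421 and 4.22 CPM. Rosa26 tumour 6 was thus the highest of its group for both Fgf3 and Fgf15. Fgf4, the ligand gene that lies between them, had no count in any library.

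Most expressed genes further out did not share this pattern. Of 24 annotated genes that start within 500 kb of Fgf15, 14 reached 1 CPM in a tumour. Translocation tumour 5 was the highest tumour for 3 of them, Fgf15, Fgf3 and Gm26793, an antisense gene that shares 761 exon bases with Fgf15 and had 97 counts there. It was within the range of the other 10 tumours for 7 of the 14. On the Fgf3 side, Ano1, a chloride channel gene, was 7.39 CPM against 5.66 to 68.1 CPM, and Fadd, a death receptor adaptor gene, was 10.1 CPM against 5.31 to 13.99 CPM. Cttn, which encodes cortactin, was 121 CPM against 60.2 to 167 CPM, and Ppfia1 53.0 CPM against 35.003 to 89.4 CPM. On the other side, LTO1 (12.3 CPM against 11.8 to 18.1 CPM) and the small RNA gene Bc1 (25.2 CPM against 21.3 to 548 CPM) lay inside the range as well. Ccnd1, the cyclin D1 gene 33.4 kb away, was lowest in translocation tumour 5 at 3.49 CPM, where the other tumours had 5.46 to 94.8 CPM. Tpcn2 and Mrgprf were also lowest there, at 8.32 and 0.0929 CPM against at least 19.03 and 3.18 CPM elsewhere, as was the intronic transcript Gm14376 at 0.232 CPM, and 1810010D01Rik had no count. Of the genes under 1 CPM, Gm9711, Gm34964, Gm44929 and Gm10152, named after their values were seen, lie between Ano1 and Fgf3 and were also at their highest CPM in translocation tumour 5. They had 9, 3, 2 and 1 counts there, against 1, 2, 3 and 0 in the other 10 tumours together. DNA copy number was not measured.

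**Figure D2:**
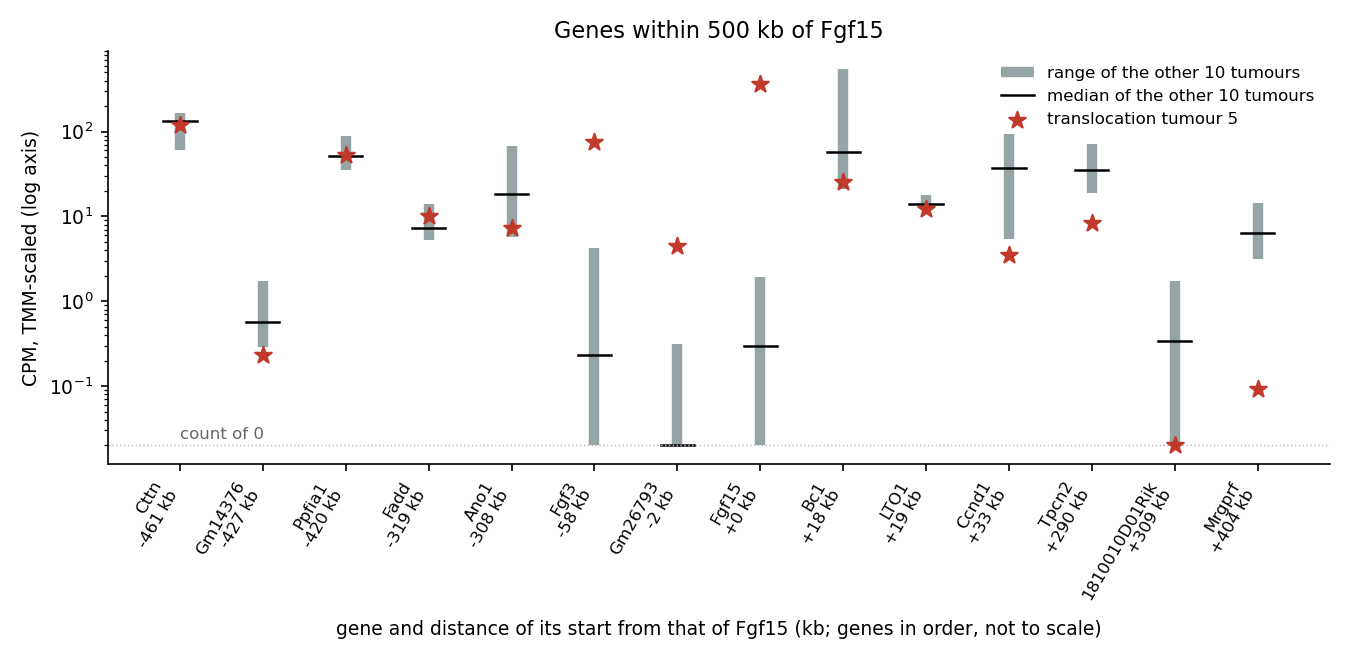
CPM on a log axis of the 14 genes within 500 kb of Fgf15 that reached 1 CPM in a tumour, in genome order with the distance of each start from that of Fgf15; the star is translocation tumour 5, the bar the range and the line the median of the other 10 tumours. Only for Fgf3, Gm26793 and Fgf15 is the star above the bar.

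Genes of the ileal and bile acid setting of Fgf15 were scarce. None of 12 such genes passed the filter on low counts. The bile acid transporter Slc10a2, the intestinal regulators Cdx1 and Cdx2 and the bile acid enzyme Cyp7a1 had no count in any library, and the bile acid binding protein gene Fabp6 had 2 counts over all tumours. In translocation tumour 5 the microvillus gene Vil1 was 3.76 CPM and the other ileal markers were at most 0.0929 CPM. The coreceptor gene Klb had no count in translocation tumour 5, and its highest level, 1.85 CPM, was in Rosa26 tumour 1. Fgfr4 was 2.59, 1.31, 0.243, 1.76 and 1.95 CPM in translocation tumours 1 to 5 and 1.96, 7.42, 3.23, 2.27, 11.4 and 4.42 CPM in Rosa26 tumours 1 to 6, so that translocation tumour 5 lay within the range of the others.

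The genes named here as following Fgf15 most closely in log2 CPM over the 11 tumours had Pearson's r from 0.946 to 0.971, a description among 13476 genes to which translocation tumour 5 contributes in each case. They were Evx1, a homeobox gene, followed by Polr1b, Banp, Pnn, Large2, Dmbt1 and Rnf113a2. Evx1 had 7.90 CPM there and at most 0.540 CPM elsewhere, Large2 74.3 and at most 2.13 CPM, and Dmbt1 7.34 and at most 0.289 CPM. The RNA polymerase I subunit gene Polr1b differed less, with 63.2 CPM against at most 23.5 CPM.

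Fgf1, a ligand that binds every FGF receptor (ENSMUSG00000036585, chromosome 18, 38838673 to 38929472), was the member with the clearest difference between genotypes. The translocation tumours had 1.82, 1.31, 1.66, 5.80 and 0.232 CPM. The Rosa26 tumours had 23.0, 49.1, 87.1, 17.5, 30.5 and 122 CPM, and muscle had 216 CPM. All Rosa26 tumours were above all translocation tumours, the lowest of the former being 3.01 times the highest of the latter. The means were 2.17 ± 2.12 CPM (SD, n = 5) and 54.9 ± 41.5 CPM (SD, n = 6). The log2 fold change of Fgf1, translocation over Rosa26, was -4.59 ± 0.80 (SE) and passed the test (edgeR adjusted p = 0.0181). With translocation tumour 1 or Rosa26 tumour 3 left out the call was lost (edgeR adjusted p = 0.0526 and 0.0528) and it held in the 9 other fits that left out 1 tumour. The translocation tumours alone would not have carried Fgf1 past the filter on low counts. With no filter the Fgf1 call held (edgeR adjusted p = 0.0227).

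Muscle tissue itself expressed Fgf1, so its level was set beside the muscle markers, and the part of muscle RNA in the Fgf1 of any tumour was not tested. Rosa26 tumour 1, with by far the highest muscle marker sum among the tumours, had the second lowest Fgf1 of its group at 23.0 CPM. Its marker sum was 13.5% of that in muscle, and the same share of the Fgf1 in muscle would be 29.2 CPM, above the level seen. Without Rosa26 tumour 1 the difference was -4.75 in log2 and still called (edgeR adjusted p = 0.0198). In each other Rosa26 tumour that share of the Fgf1 in muscle came to at most 1.502 CPM, against 17.5 to 122 CPM seen. Rosa26 tumour 6 had the highest Fgf1 and a muscle marker sum of 20.9 CPM. Translocation tumour 2, at 3972 CPM of muscle markers, had 1.31 CPM of Fgf1, from 3 counts. The marker sum there was 1.28% of that in muscle, and the same share of the Fgf1 in muscle would be 2.75 CPM, above the level seen. Markers of epithelium, 9 in number, summed to 14.5 to 312 CPM in the Rosa26 tumours and to 4.81 to 30.02 CPM in the translocation tumours. The 9 did not move as 1: the highest Rosa26 level was above the highest translocation level for Cdh1 (160.2 against 7.30 CPM), Krt8 (64.4 against 0.438), Epcam (54.7 against 1.39), Krt18 (47.9 against 19.7), Krt14 (14.8 against 11.2) and Trp63 (5.26 against 0.438), and below it for Krt5 (1.39 against 4.46 CPM), Krt10 (2.48 against 4.03) and Krt1 (0.408 against 0.446). The lowest sum of the Rosa26 group, 14.5 CPM, was in tumour 4, which also had the least Fgf1 of that group, 17.5 CPM. Translocation tumours 4 and 5 had higher sums, 24.5 and 30.02 CPM, with 5.80 and 0.232 CPM of Fgf1. Rosa26 tumour 2 had the highest sum, 312 CPM, with 49.1 CPM of Fgf1, and Rosa26 tumour 6 had 176 CPM with 122 CPM. The part of epithelial cells in the difference was not tested. The genes most like Fgf1 over the 11 tumours were Tbx15, a T-box factor gene, Jup, which encodes plakoglobin, and Eppk1, an epithelial plakin gene (Pearson's r 0.974, 0.964 and 0.964).

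Of the 9 members other than Fgf15, all passed the filter and 1, Fgf1, was called by edgeR at an adjusted p of 0.05. Over all 17021 genes tested the share called was 2.70%, with 1.14% higher and 1.56% lower in the translocation tumours. By DESeq2's Wald test 2 members were called lower, Fgf1 and Fgfr2, where that test called 14.9% of the genes to which it gave an adjusted p. At an unadjusted p under 0.05 edgeR gave 3 of the 9 members and 24.8% of all genes. Fold changes were negative for 8 of the 9, with a median of -0.96 against 0.07 over all tested genes. Fgf1 was also the 1 member of 9 whose groups did not overlap, a state shared by 5.32% of all tested genes (3.12% with Rosa26 higher and 2.20% with translocation higher). Because the members were picked with these results known, such counts do not set them apart from other genes.

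Fgf7, the keratinocyte growth factor gene (ENSMUSG00000027208, chromosome 2, 126034658 to 126091185), was 7.48, 0, 8.89, 21.7 and 0.139 CPM in translocation tumours 1 to 5. The Rosa26 tumours had 34.8, 40.9, 41.7, 20.1, 25.4 and 30.8 CPM and muscle 1.85 CPM. A single tumour, translocation tumour 4, reached into the Rosa26 range. The log2 fold change was -2.01 ± 0.90 (SE) and did not pass (edgeR adjusted p = 0.190).

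Fgf10, a mesenchymal ligand of limb and lung buds (ENSMUSG00000021732, chromosome 13, 118669791 to 118792115), was 6.61, 24.5, 43.5, 9.43 and 21.4 CPM in the translocation tumours and 24.0, 28.7, 41.6, 22.9, 120.7 and 47.1 CPM in the Rosa26 tumours. The groups overlapped, and Rosa26 tumour 5 stood above the rest. Translocation tumour 5, with 460 counts, lay inside the range of the other translocation tumours. For Fgf10 the log2 fold change was -1.13 ± 0.56 (SE, edgeR adjusted p = 0.230).

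Fgf18, a ligand of growing cartilage and bone (ENSMUSG00000057967, chromosome 11, 33117430 to 33147400), was 1.73, 0.875, 15.3, 4.97 and 0.139 CPM in the translocation tumours. The Rosa26 tumours had 4.56, 9.47, 5.88, 9.62, 7.24 and 6.92 CPM and muscle 0.488 CPM. Translocation tumour 3 was thus the highest tumour of all and translocation tumour 5, with 3 counts, the lowest by CPM. The Rosa26 values lay close together. For Fgf18 the log2 fold change was -0.60 ± 0.81 (SE, edgeR adjusted p = 0.686), and it was 0.14 without translocation tumours 2 and 5 and Rosa26 tumour 4.

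Fgf2, the basic FGF gene (ENSMUSG00000037225, chromosome 3, 37348346 to 37410108), was 7.77, 10.5, 7.99, 3.78 and 0.232 CPM in the translocation tumours and 14.1, 5.84, 11.5, 10.7, 10.1 and 10.2 CPM in the Rosa26 tumours. With 43.4 CPM in muscle and overlapping tumour groups, it showed no call (log2 fold change -0.76 ± 0.64, SE, edgeR adjusted p = 0.490). Fgf2 shares 640 exon bases with Nudt6 on the other strand, and how the counting treated strand is not given in the sources used here. Fgf9, a ligand of mesenchyme (ENSMUSG00000021974, chromosome 14, 58070547 to 58112720), was scarce in every library, with 0.479, 2.19, 0.203, 0.104 and 0.0465 CPM in the translocation tumours and 0.751, 0.316, 1.35, 1.05, 0.689 and 0.442 CPM in the Rosa26 tumours. Its counts were 1 to 33 per tumour library, too few to set the tumours in order (log2 fold change -0.90 ± 0.87, SE, edgeR adjusted p = 0.552).

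The genes whose log2 CPM followed the remaining ligands most closely over the 11 tumours are given as a description. They were Rtp4, the chemokine gene Ccl24 and Ces2g for Fgf7 (Pearson's r 0.971, 0.957 and 0.956), and Dnajc6, Rragb and Hectd4 for Fgf10 (0.871, 0.869 and 0.859). For Fgf18 they were Msn, the N-cadherin gene Cdh2 and Gramd2 (0.961, 0.954 and 0.951). For Fgf2 they were Tmem229b, Tdrd7 and Vsig10 (0.964, 0.961 and 0.959), and for Fgf9 Slc37a1, Inpp5a and Slc52a3 (0.926, 0.900 and 0.898).

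Summed per kb over 18 secreted FGF ligands, no single ligand led every tumour. Fgf15 made up 76.3% of the sum in translocation tumour 5 and Fgf3 another 20.4%. Fgf7 led in translocation tumours 1 and 4 (27.9% and 32.3%), Fgf10 in translocation tumour 2 (51.4%) and Fgf18 in translocation tumour 3 (39.0%). In the Rosa26 tumours Fgf7 led tumours 1 and 2 (36.5% and 26.9%), Fgf1 tumours 3 and 6 (32.6% and 39.1%), Fgf18 tumour 4 (28.6%) and Fgf10 tumour 5 (51.4%). Fgf1 was 10.9% to 39.1% of the sum in every Rosa26 tumour and at most 5.13% in every translocation tumour, which restates the Fgf1 difference above. Muscle was dominated by Fgf1 at 81.1%. The sum itself was 157.8 CPM per kb in translocation tumour 5, 8.24 to 33.01 in the other translocation tumours and 28.4 to 57.2 in the Rosa26 tumours.

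**Figure D3:**
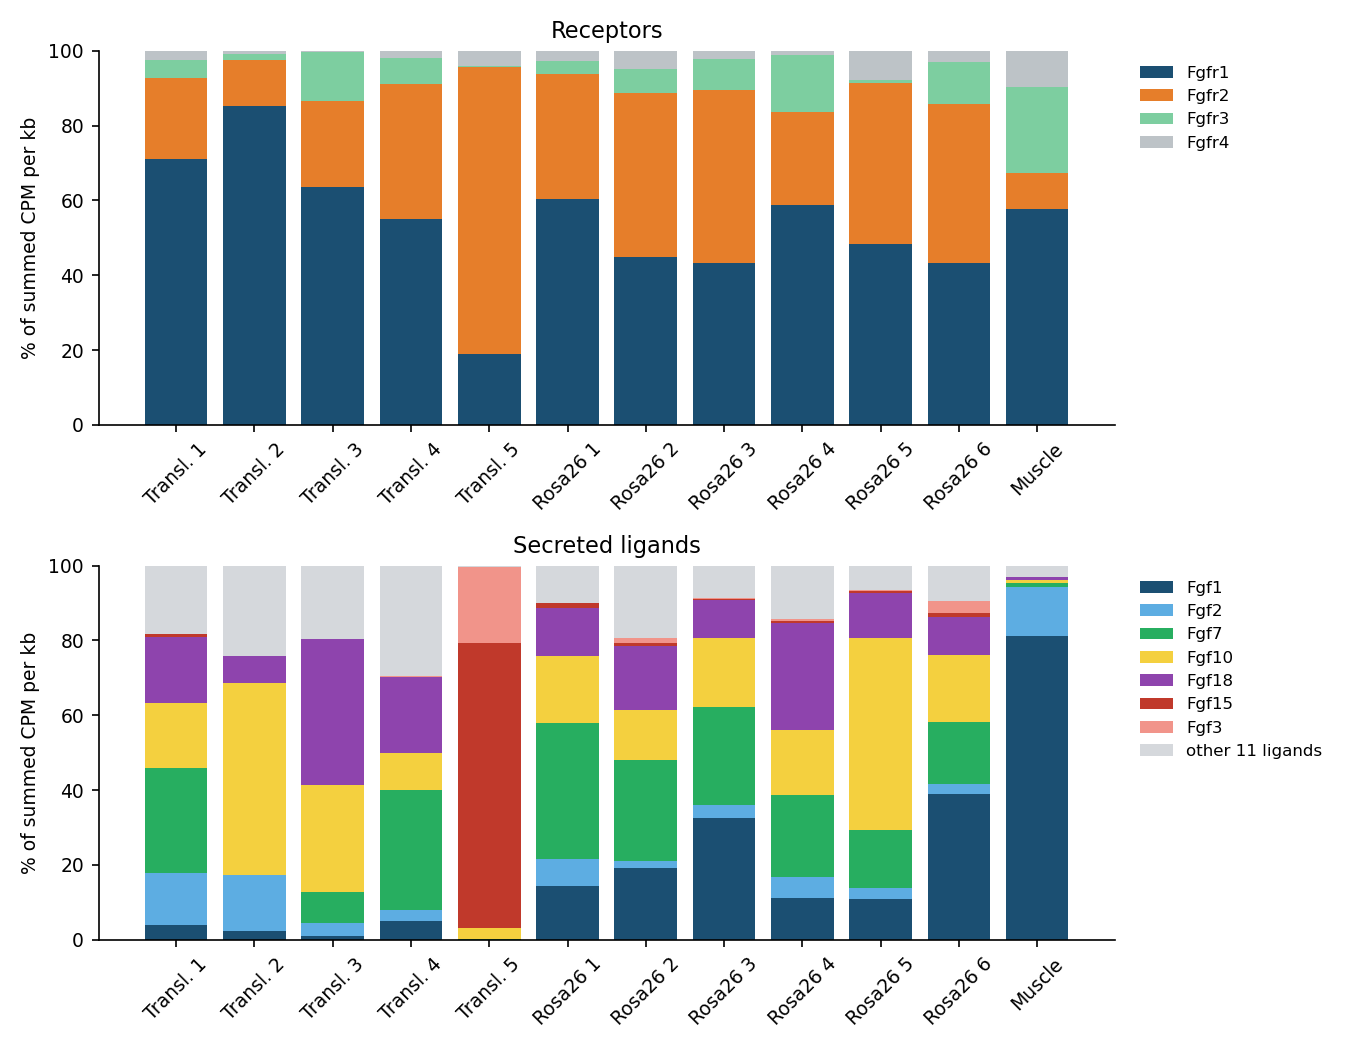
Share of each receptor gene (top) and each secreted ligand gene (bottom) in the summed CPM per kb of exon of its class, as stacked bars in percent for each library. Translocation tumour 5 is the tumour where Fgfr2 outweighs Fgfr1 several fold and where Fgf15 and Fgf3 make up nearly all ligand signal.

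Among the receptors, Fgfr1, the main receptor of mesenchymal cells (ENSMUSG00000031565, chromosome 8, 25513654 to 25575718), was 198, 410.4, 205, 139.5 and 24.5 CPM in translocation tumours 1 to 5. The Rosa26 tumours had 124, 186, 178, 331, 195 and 174 CPM and muscle 77.6 CPM. Apart from translocation tumour 5, which was the lowest of all libraries, the tumours lay in 1 range. The log2 fold change of Fgfr1 was 0.03 ± 0.52 (SE, edgeR adjusted p = 0.982), and its sign turned in 8 of the 20 alternative fits (to -0.45 without translocation tumour 2 and to -0.78 with sex as a covariate).

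Fgfr2 (ENSMUSG00000030849, chromosome 7, minus strand), the receptor of Fgf7 and Fgf10 in epithelium, spans 130162451 to 130266263 in 26 of its 27 annotated transcripts, and the last runs far beyond. It shares 314 exon bases with Ctbp2 on the same strand. Fgfr2 was 63.7, 62.1, 77.5, 95.8 and 104 CPM in the translocation tumours and 71.1, 189, 199.6, 147, 182 and 179 CPM in the Rosa26 tumours, with 13.6 CPM in muscle. Rosa26 tumour 1 was the single Rosa26 tumour inside the translocation range. The log2 fold change was -0.96 ± 0.29 (SE) and missed the threshold (edgeR adjusted p = 0.0812). It passed without Rosa26 tumour 1 (-1.12, edgeR adjusted p = 0.0336) and by DESeq2's Wald test (-0.97, DESeq2 adjusted p = 0.0127). Rosa26 tumour 1 is the tumour with the muscle marker sum of 42172 CPM, and the part of muscle RNA in its Fgfr2 level was not tested.

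Fgfr3, a receptor of cartilage (ENSMUSG00000054252, chromosome 5, 33721674 to 33737068), varied widely inside both groups. It was 9.30, 6.13, 30.6, 13.1 and 0.232 CPM in the translocation tumours and 5.26, 19.1, 25.3, 62.4, 2.22 and 32.8 CPM in the Rosa26 tumours, with 22.5 CPM in muscle. With such spread the log2 fold change was -1.01 ± 0.94 (SE, edgeR adjusted p = 0.539). The gene most like Fgfr3 over the tumours was Sox5, a cartilage transcription factor gene (Pearson's r 0.961, n = 11), and Ror2 was also among the closest. Markers of cartilage, 6 in number, summed to 2995 CPM in Rosa26 tumour 4, the highest tumour for both. Their sum was 642 CPM in translocation tumour 5, which had the least Fgfr3, and 132 CPM in translocation tumour 3. The part of cartilage cells in the Fgfr3 level was not tested. Spry4, a feedback inhibitor of FGF signalling, was among the 3 genes most like Fgfr1 (Pearson's r 0.971), after Rtl5 and the retinoic acid receptor gene Rarg.

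Per kb of exon, Fgfr1 was the leading receptor gene in 4 of 5 translocation tumours, at 54.9% to 85.2% of the sum over Fgfr1 to Fgfr4. In translocation tumour 5 Fgfr2 led with 76.8% and Fgfr1 held 18.8%. For Fgfr2 itself the most alike genes over the tumours were Heatr5b, Atrn and the farnesyltransferase gene Fntb (Pearson's r 0.980, 0.967 and 0.963). The ratio of Fgfr2 to Fgfr1 per kb was 0.308, 0.145, 0.361, 0.657 and 4.08 in translocation tumours 1 to 5. It was 0.55, 0.971, 1.07, 0.426, 0.893 and 0.985 in Rosa26 tumours 1 to 6 and 0.167 in muscle. In Rosa26 tumours 2, 3, 5 and 6 both receptors were thus close to equal, and in translocation tumours 1 to 4 and Rosa26 tumours 1 and 4 Fgfr1 outweighed Fgfr2. The receptor sum was lowest in translocation tumour 5, at 13.2 CPM per kb against 20.7 to 57.1 in the other tumours. Set per kb of exon, the median level in the Rosa26 tumours was 18.5 CPM for Fgfr1 and 17.5 for Fgfr2, followed by 10.1 for Fgf7, 7.64 for Fgf10, 7.29 for Fgf1, 5.96 for Fgf18, 3.10 for Fgfr3 and 1.54 for Fgf2, with 0.295 for Fgf15 and 0.155 for Fgf9. The ranges over libraries of neighbours in that order overlapped from Fgfr1 down to Fgf2. In the translocation tumours the medians per kb were 20.02 CPM for Fgfr1, 7.50 for Fgfr2 and 4.65 for Fgf10, and each other member was at or below 2.30. Gene counts cannot tell the epithelial from the mesenchymal splice form of a receptor.

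By CPM alone, translocation tumour 5 was the lowest of the 11 tumours for 6 of the 9 members other than Fgf15, namely Fgf1, Fgf2, Fgf9, Fgf18, Fgfr1 and Fgfr3. Over all tested genes it was the lowest tumour for 26.8%. It stood inside the tumour range for Fgf10 and Fgfr2. For Fgf7 only translocation tumour 2 was lower, with no count at a floor of 1.31 CPM, so the order of these 2 is not known. Nor is the lowest tumour known for Fgf9, at 1 count in translocation tumour 5 and 2 in translocation tumour 4. The same holds for Fgf18, where translocation tumour 2 had 2 counts, under its floor. In translocation tumour 5 the counts of Fgf1, Fgf2, Fgf7, Fgf9, Fgf18 and Fgfr3 were 1 to 5, so the exact size of these lows is limited by counting. Leaving out translocation tumour 5 kept the Fgf1 call (-4.26, edgeR adjusted p = 0.0123) and added none among the members.

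With 1 muscle library, levels beside muscle have no replicate check. Muscle was above all 11 tumours for Fgf1 and Fgf2, or 2 of the 10 members, where 21.4% of all tested genes were above. It was below all tumours for Fgf10 (1.56 CPM) and Fgfr2 (13.6 CPM), again 2 of 10, where 24.0% of all genes were below. The TMM factor of the muscle library was 0.409, far from the 0.771 to 1.26 of the tumours, which raises its CPM. On plain totals without ribosomal-sequence genes Fgf1 was 89.0 CPM in muscle and 158.9 CPM in Rosa26 tumour 6, so that muscle was no longer highest, and Fgf2 was 17.9 CPM in muscle and 17.6 CPM in the next library. Fgf10 and Fgfr2 stayed below all tumours on that scale.

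Other genes of the pathway were taken from lists named by role. In all 75 of these genes passed the filter, and edgeR called 0 higher and 5 lower in the translocation tumours, beside 1.14% and 1.56% of all genes. At an unadjusted p under 0.05 edgeR gave 23 of the 75, of which 5 were higher, and DESeq2's Wald test called 17, of which 3 were higher. Over all genes the shares by these 2 rules were 24.8% and 14.9%, against which the counts of each list below are to be read. The median log2 fold change of the 75 was -0.35, against 0.07 over all tested genes.

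**Figure D4:**
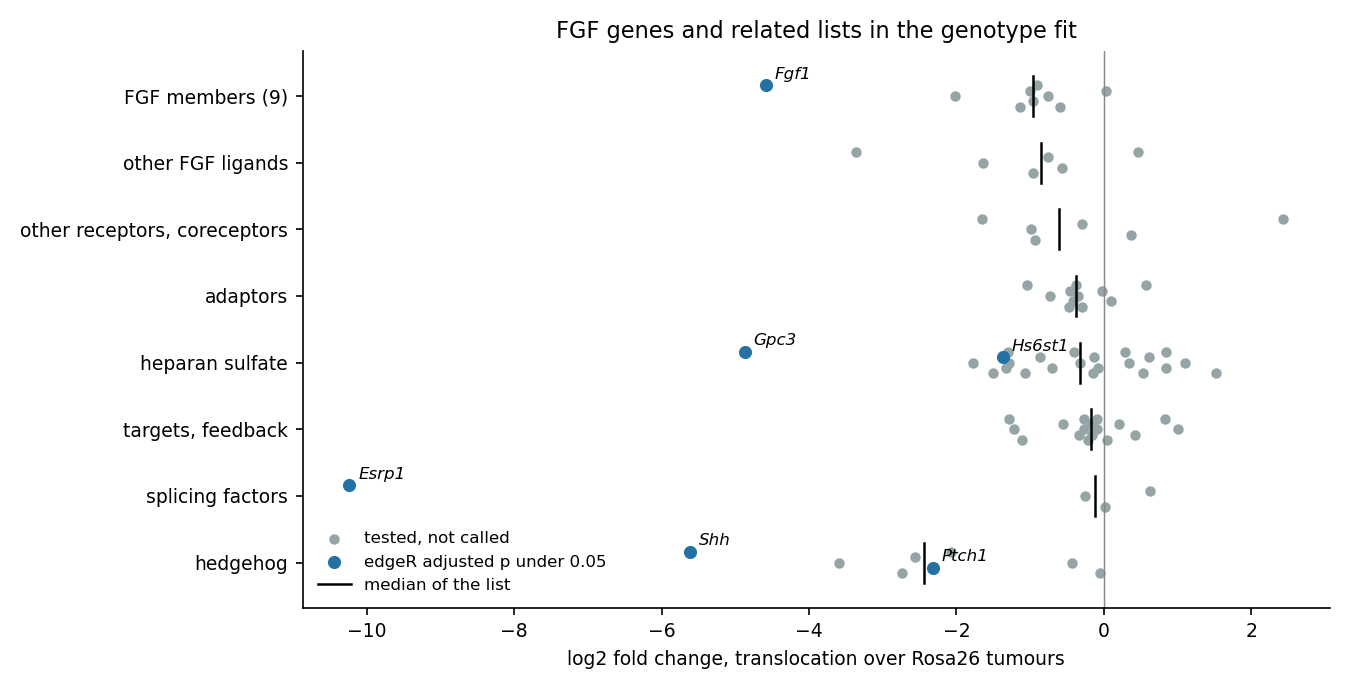
Log2 fold changes, translocation over Rosa26 tumours, of the tested FGF members (9, without Fgf15) and of 7 related lists, 1 point per gene; blue points are called by edgeR and the line is the list's median. All 6 blue points lie on the negative side; the point of Esrp1 is a fitted value against a group with no counts.

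Gpc3 and Hs6st1 were the called members of the heparan sulfate list, on which 23 of 24 genes were tested, with a median of -0.32. Fold changes were negative for 15 of the 23 and positive for 8. At an unadjusted p under 0.05 edgeR gave 8 of the 23, of which 2 were higher in the translocation tumours. DESeq2's Wald test called 5, of which 1 was higher. Gpc3, a glypican that carries heparan sulfate, was 2.30, 3.94, 3.25, 0.414 and 0.558 CPM in the translocation tumours and 31.8, 52.2, 93.3, 5.95, 43.5 and 125 CPM in the Rosa26 tumours, without overlap. Its log2 fold change was -4.87 ± 0.86 (SE, edgeR adjusted p = 0.0181), and with translocation tumour 1 or Rosa26 tumour 3 left out it no longer passed (edgeR adjusted p = 0.05004 and 0.0528). The translocation tumours alone would not have carried Gpc3 past the filter. With no filter the Gpc3 call held (edgeR adjusted p = 0.0227). Hs6st1, a heparan sulfate 6-O-sulfotransferase gene, was 12.1 to 19.7 CPM in the translocation tumours, with a median of 14.1, and 22.002 to 65.2 CPM in the Rosa26 tumours. Its log2 fold change was -1.37 ± 0.30 (SE, edgeR adjusted p = 0.0359). The Hs6st1 call held in 4 of 11 fits that left out 1 tumour, and was lost when translocation tumour 1 or 4 or any Rosa26 tumour but the first was left out (edgeR adjusted p = 0.0527 to 0.0968). It was also lost with Rosa26 tumours 5 and 6 summed as 1 sample (edgeR adjusted p = 0.0699). Hs2st1 of the same list, named after its values were seen, went the other way without overlap. It was 73.6 to 203.7 CPM in the translocation tumours and 43.1 to 71.6 CPM in the Rosa26 tumours. Its log2 fold change was 0.84 with no call (edgeR adjusted p = 0.110).

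Of the splicing factors that set the receptor splice form, Esrp1, which promotes the epithelial form, had 0 counts in the 5 translocation tumours and 1025 in the Rosa26 tumours. There it was 5.54, 17.7, 16.2, 0.175, 2.53 and 11.8 CPM. Against a floor of 3 counts over the pooled translocation group, the Rosa26 mean of 8.99 CPM was at least 234-fold higher. Rosa26 tumour 4 had 1 count, and its 0.175 CPM lay under the floor of 1.31 CPM of translocation tumour 2. edgeR called the gene (edgeR adjusted p = 0.0275). It passed the filter through its Rosa26 counts alone, so the call is no separate support for the difference. The call was lost when translocation tumour 1 was left out (edgeR adjusted p = 0.0551). In 5 of 11 fits that left out 1 tumour the filter removed the gene. Rbfox2, Ptbp1 and Ptbp2, the other tested factors of this list, had log2 fold changes of -0.25, 0.02 and 0.63 with no call. Of the 4 tested factors edgeR gave 1 at an unadjusted p under 0.05 and DESeq2 called 1.

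Hedgehog genes had negative fold changes for all 8 of 10 that were tested, with a median of -2.44 against 0.07 over all tested genes. The share of all tested genes with a negative fold change was not counted. At an unadjusted p under 0.05 edgeR gave 6 of the 8, beside 24.8% of all genes. DESeq2's Wald test called 5 of them, beside 14.9%. Shh, the sonic hedgehog ligand gene, was 0.192, 1.75, 16.4, 1.55 and 0.0929 CPM in the translocation tumours and 97.8, 366, 169, 83.9, 261 and 260.2 CPM in the Rosa26 tumours. Between genotypes the log2 fold change was -5.61 ± 1.18 (SE, edgeR adjusted p = 0.0331), or -8.01 without translocation tumour 3, the high one of its group. Ptch1, the hedgehog receptor and a target of the pathway, was 13.6 to 60.4 CPM and 74.0 to 292 CPM, again without overlap. Between genotypes Ptch1 differed by -2.32 ± 0.46 in log2 CPM (SE) and was called (edgeR adjusted p = 0.0275). Leaving out translocation tumour 1, 2 or 4 or Rosa26 tumour 3, 5 or 6 removed the Shh call (edgeR adjusted p = 0.0516 to 0.0856). Leaving out translocation tumour 1 or Rosa26 tumour 3 or 6 removed that of Ptch1 (edgeR adjusted p = 0.0660 to 0.0751). Both were also lost with Rosa26 tumours 5 and 6 summed (edgeR adjusted p = 0.0684 for Shh and 0.0502 for Ptch1) and without translocation tumours 2 and 5 and Rosa26 tumour 4 (edgeR adjusted p = 0.0619 and 0.0773), and that of Shh with no filter (edgeR adjusted p = 0.0721). The translocation tumours alone would not have carried Shh past the filter. In translocation tumour 5, where Fgf15 was high, Shh and Ptch1 were 0.0929 and 31.8 CPM, and the target gene Gli1 had no count.

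No gene of the other lists was called by edgeR. Among 6 tested of 15 other FGF ligands, edgeR gave 1 gene at an unadjusted p under 0.05 and DESeq2 called 1. Fgf13, an intracellular FGF of excitable cells, had a log2 fold change of -3.36 (edgeR adjusted p = 0.0629), with 0 to 0.673 CPM in the translocation tumours, 0.268 to 8.32 CPM in the Rosa26 tumours and far more in muscle, 38.9 CPM. Fgf16 and Fgf12 had -1.64 and -0.96, and Fgf12 was 11.8 CPM in translocation tumour 5 against at most 0.621 CPM in the other translocation tumours. Fgf17 and Fgf5, named after their values were seen, did not pass the filter: Fgf17 was 7.22 CPM in translocation tumour 3, with no other tumour above 0.525 CPM, and Fgf5 had no count in the translocation tumours and 0.173 to 2.61 CPM in the Rosa26 tumours.

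Among 6 tested receptors, coreceptors and binding proteins edgeR gave 2 at an unadjusted p under 0.05 and DESeq2 called 1. Flrt3, a membrane protein that binds FGF receptors, had a log2 fold change of 2.43 (edgeR adjusted p = 0.115), with 151 CPM in translocation tumour 5 and 2.18 to 25.8 CPM in the other translocation tumours. Fgfr4 and Fgfrl1, a receptor without a kinase domain, had -1.65 and -0.93. Among the 11 adaptors edgeR gave 3 at an unadjusted p under 0.05 and DESeq2 called 3. The ubiquitin ligase gene Cbl had -1.04 (edgeR adjusted p = 0.0736) with 25.6 to 78.3 CPM in the translocation tumours and 86.9 to 162 CPM in the Rosa26 tumours, without overlap, the exchange factor gene Sos1 had -0.72 and Crk 0.57. Among 17 tested target and feedback genes edgeR gave 2 at an unadjusted p under 0.05 and DESeq2 called 1. The FGF inhibitor gene Il17rd had -1.22 (edgeR adjusted p = 0.127), the sprouty gene Spry3 1.005 and Ccnd1 -1.29.

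Promoter sequence was examined for the cAMP response element, since Atf1 is of the CREB family that binds it. The 250 bases before the transcription start were available from RefSeq (GRCm38.p6) for 7 of the 10 members, namely Fgf2, Fgf7, Fgf9, Fgf10, Fgf18, Fgfr2 and Fgfr3, and for Fgf3. For Fgf2, Fgf3, Fgf9 and Fgf10 the stretch lies inside the gene span given above, so the RefSeq start differs from the gene start used there. Fgfr3 had more than 1 start, with 1 stretch wholly and 1 partly inside its span given above. Distances and absent matches hold for the RefSeq starts only. The full element TGACGTCA was in none of them, where 1.55% of all 32851 promoters in the table held it. The core TGACG, searched on both strands and also part of the full element, was in 2 of the 7, Fgf2 and Fgf9, where 17.8% of all promoters held it. These 2 are shown because they carry the core, and Fgf3 because it was high together with Fgf15 in translocation tumour 5. Each runs 5′ to 3′ toward the start, with the core or its complement in capitals.
Fgf2 (chr3:37348403-37348652, plus strand): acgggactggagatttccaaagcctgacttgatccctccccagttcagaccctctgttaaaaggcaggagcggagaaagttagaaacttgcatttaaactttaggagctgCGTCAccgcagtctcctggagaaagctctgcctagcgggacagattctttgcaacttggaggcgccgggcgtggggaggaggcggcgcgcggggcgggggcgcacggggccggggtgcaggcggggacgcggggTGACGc
Fgf9 (chr14:58072436-58072685, plus strand): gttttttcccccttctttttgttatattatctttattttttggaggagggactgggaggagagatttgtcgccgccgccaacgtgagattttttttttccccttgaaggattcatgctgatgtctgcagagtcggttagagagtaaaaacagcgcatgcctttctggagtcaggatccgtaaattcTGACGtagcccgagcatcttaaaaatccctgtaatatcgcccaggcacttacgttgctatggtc
Fgf3 (chr7:144838362-144838611, plus strand): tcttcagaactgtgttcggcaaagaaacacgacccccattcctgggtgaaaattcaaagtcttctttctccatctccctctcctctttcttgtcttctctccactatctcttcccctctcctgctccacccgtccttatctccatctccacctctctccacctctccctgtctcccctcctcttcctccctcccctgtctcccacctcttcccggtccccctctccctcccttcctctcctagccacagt
In Fgf2 the cores begin 140 and 6 bases before the start and in Fgf9 1 begins 64 bases before it. The Fgf3 stretch held neither form. A match is a run of letters and not a measured binding site. Neither Fgf2 nor Fgf9 was called between the genotypes.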

How the data were processed

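RNA from 11 tumours and 1 muscle was sequenced after ribosomal RNA depletion with a stranded Illumina kit, per the labels' protocols. The authors deposited whole-number counts per Ensembl gene, not normalized. The build mm10 and the tools featureCounts, STAR 2.7.5a, RSEM, cutadapt and DESeq2 stand in the submitters' processing notes, without roles. How strand and multiply mapped reads were counted, and on which annotation, is not given in the sources used here. All 55536 identifiers matched GENCODE M21 (mm10), which gave symbols, positions and exon lengths.

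Genotypes were compared over the 11 tumours with edgeR 4.0.16 in R 4.3.3 (TMM, filterByExpr with a count minimum of 10, robust quasi-likelihood fit, Benjamini-Hochberg adjustment over all tested genes, threshold 0.05). Fold changes are translocation over Rosa26. The SE given with a fold change was derived from the test, as its size divided by the square root of the quasi-likelihood F statistic. Overlap of groups, and the muscle beside the tumours, were read from CPM scaled by TMM over all 12 libraries. No library was a copy of another: the closest pair of tumours had a median chi-square of 5.25 per gene, against 0.455 for sampling noise. Tested on simulated data for this comparison, over 16773 genes, the fit called 41.7% of genes changed by 2 and 84.2% of genes changed by 4 on the log2 scale, with 3 unchanged genes called.

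The members and lists were chosen with earlier results of these data known. The genes named are the members, the called genes of each list or up to 3 with the smallest adjusted p, genes within 500 kb of Fgf15 at 1 CPM or more, and the genes with the highest Pearson's r of log2 CPM (prior count 2) among genes of at least 5 CPM, 8 for Fgf15 and 3 for each other member, of which 2 are not reported here. A count of 0 was given a floor of 3 counts, per library unless the group is named, for counting error only. Alternatives were DESeq2 1.42.0 size factors and Wald test, other filters, muscle kept in, sex as a covariate, summed or omitted libraries and other totals. No fit summed Rosa26 tumours 2 and 3.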

Additional observations from a re-analysis of the deposited data

Results flagged for a closer look

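In groups of 5 or 6 tumours, a library was marked when its gap to the next took up more than a set part of the range of its group. The part was Dixon's 95% value, 0.71 for 5 tumours and 0.625 for 6, which about 1 in 20 groups of normally distributed values would pass. The rule was set on CPM, which need not be normally distributed, and the share of all genes marked is not given, so the marks are a description. Fgf15 in translocation tumour 5 (368 CPM, next 0.192) meets this by the way it was chosen, so the mark is no test. Among the other members, translocation tumour 4 stood apart for Fgf1 (5.80 CPM, next 1.82) and translocation tumour 2 for Fgf9 (2.19 CPM, next 0.479, from 5 counts). Rosa26 tumour 5 stood above its group for Fgf10 (120.7 CPM, next 47.1) and Rosa26 tumour 4 for Fgfr1 (331 CPM, next 195).

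Of the other pathway genes, Fgf3 was marked in both groups, in translocation tumour 5 (74.7 CPM, next 0.104) and in Rosa26 tumour 6 (4.22 CPM, next 1.18). Translocation tumour 5 was also high for Fgf12 (11.8 CPM, next 0.621) and Flrt3 (151 CPM, next 25.8) and low for Cbl (25.6 CPM, next 63.9). Translocation tumour 3 was high for Shh (16.4 CPM, next 1.75) and Fgf17 (7.22 CPM, next 0.0959), translocation tumour 4 for Fgf16 (1.86 CPM, next 0.284) and Rosa26 tumour 3 for Fgf5 (2.61 CPM, next 1.05).

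Of the genes around Fgf15, Gm26793 was high in translocation tumour 5 (4.51 CPM, next 0.288), Ano1 in translocation tumour 4 (68.1 CPM, next 10.8) and Bc1 in translocation tumour 2 (548 CPM, next 136). Rosa26 tumour 4, 1 of the pair with much ribosomal sequence, was high for Ppfia1 (89.4 CPM, next 63.9) and Fadd (13.99 CPM, next 7.84), and Rosa26 tumour 1 was low for Cttn (60.2 CPM, next 133).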

How the results depend on the processing

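The count of called members, 1 by edgeR, was 2 by DESeq2's Wald test and 0 to 2 when 1 tumour was left out (0 without Rosa26 tumour 3 or translocation tumour 1, 2 without Rosa26 tumour 1). The 5 calls among the other pathway genes became 17 by DESeq2's Wald test, 12 with sex as a covariate, 1 with Rosa26 tumours 5 and 6 summed and 0 to 9 with 1 tumour left out (0 without Rosa26 tumour 3 or translocation tumour 1, 9 without translocation tumour 5). Over all genes the 460 calls became 2439, 2534 and 91 under the same 3 settings, 815 with translocation tumours 2 and 5 summed, and 63 to 744 with 1 tumour left out. The cause was not tested. Members with no overlap between genotypes numbered 1 to 2 with 1 tumour left out, against 1. Members highest in muscle fell from 2 to 1 on plain totals without ribosomal-sequence genes.

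Signs turned for Fgf18 (0.14) and Fgfr3 (0.088) without translocation tumours 2 and 5 and Rosa26 tumour 4. Fgfr1, near 0, turned to -0.020 with muscle kept, -0.022 with no filter, -0.78 with sex as a covariate and -0.36 with translocation tumours 2 and 5 summed, and ran from -0.45 to 0.31 with 1 tumour left out. Fgf1 kept its direction in all 20 alternatives and its call in 18. The filter removed Esrp1 in 5 fits that left out 1 tumour. Fgf9, with few counts, is limited by depth, as are the low values of translocation tumour 5. No paired analysis was possible because the replicate numbers follow accession order and pair no samples.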
